A study of Mus musculus with 7 samples.

Results

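The comparison set colon epithelium taken 7 days after a course of DSS against untreated colon epithelium. DSS, dextran sulfate sodium, is a sulfated polysaccharide that injures the colon lining when mice drink it, and its withdrawal is followed by repair. The pair made up 2 of the 7 libraries of the series. Each library was 1 pool of equal amounts of RNA from 3 female mice, 6 weeks old at the start, of the hCYP1A line on a C57BL/6 background, in which human CYP1A genes stand in the place of the mouse ones. All groups, the control included, shared that genotype. The control mice received no treatment, and no day is given for them. The DSS mice drank 1.5% DSS for 5 days and were killed on day 7 after DSS. Values from 3 other libraries are set beside the pair: DSS alone on days 1 and 3, and day 7 of mice that had also received 2 doses of PhIP at 100 mg/kg, 4 days apart, before the same DSS course. PhIP is a dietary carcinogen that forms in meat during cooking. By the labels the control had normal pathology and both day 7 groups had partial colitis. The tissue was scraped from the muscle layer, so cells of the underlying mucosa can be in it.

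The colon epithelium is a single layer renewed from stem cells at the crypt base. Its absorptive cells take up salt, water and short-chain fatty acids, its goblet cells make the mucus, and tuft and enteroendocrine cells sense the contents of the gut. When the layer is broken, neutrophils and monocytes enter the mucosa, fibroblasts lay down matrix, and the surviving epithelium passes through a wound-associated state before normal differentiation returns.

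With 1 library on each side there is no replicate and no test. A ratio is that of unique reads scaled to the library total, 7664276 reads for the control and 8256557 for DSS day 7, and the interval beside it is an exact 95% interval for counting error only. Differences between mice or pools are not in it. Of 18036 genes listed in any of the 7 libraries, 16897 had a read in the pair and 13603 had at least 10 reads over the pair. Among those 13603 genes, 1237 (9.09%) were at least 2-fold higher in DSS day 7 and 1040 (7.65%) at least 2-fold lower. The median log2 ratio was -0.07. The higher genes reached further: 302 were at least 8-fold higher and 76 at least 8-fold lower. Levels are given in RPKM, reads scaled to gene length and to the library total. In the control 816 of the 1237 higher genes stood under 1 RPKM, and a high ratio favours genes with a low control level. In the plot of all genes the higher side extends to S100a8 at a ratio of 464, and the lower side has 1 abundant gene far from the rest, Mptx1.

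**Figure D1:**
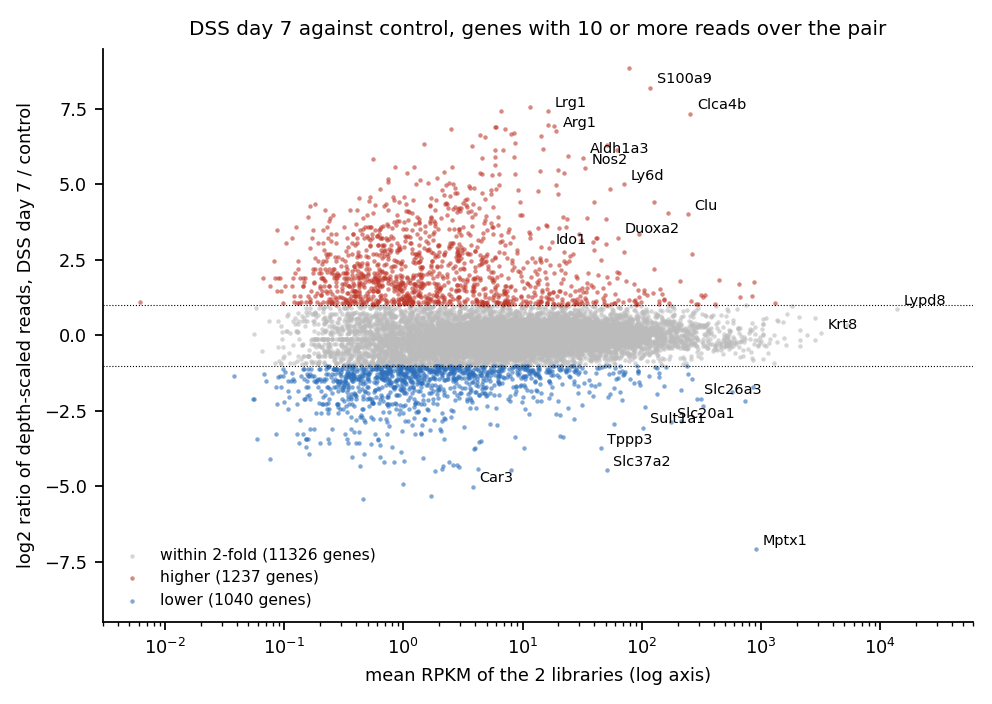
Log2 ratio of depth-scaled reads, DSS day 7 over control (vertical), against the mean RPKM of both libraries (horizontal, log axis), 1 point per gene with at least 10 reads over the pair. Dotted lines mark 2-fold; 1237 genes lie above the upper line, 1040 below the lower line, and 11326 between.

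The tissue label was checked against 12 epithelial markers. All 12 stayed within 2-fold, and their summed level was 10779.6 RPKM in the control and 11978 RPKM in DSS day 7. Epcam, an adhesion molecule of epithelial cells, stood at 718 and 951 RPKM. Cdh1, which encodes E-cadherin, stood at 511 and 499 RPKM. Krt20, a keratin of mature surface cells, was 448 and 812 RPKM, 1.81-fold higher (1.76 to 1.87). Mouse Cyp1a1 and Cyp1a2 had no reads in either library.

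Neutrophil, macrophage and fibroblast markers differed more than the epithelial ones, and their levels stand beside the inflammatory genes named here. Of 22 neutrophil markers, 17 had at least 10 reads over the pair. For 14 of those the control held fewer than 5 reads, so the read minimum itself set their direction and their number shows nothing. The summed level of the list was 3.79 RPKM in the control and 563 RPKM in DSS day 7. Of 23 macrophage and monocyte markers, 18 had at least 5 control reads and 15 of these were at least 2-fold higher (9.09% of all genes were), and the summed level was 87.6 against 393 RPKM. Of 22 fibroblast and matrix genes, 21 had at least 5 control reads, with 17 higher and 1 lower, and the sums were 32.4 and 211 RPKM. Of 18 T and NK cell markers 7 were at least 2-fold lower (7.65% of all genes were) and 2 higher, but 5 of the 18 had fewer than 5 day 7 reads and so met the read minimum through the control. Of the 13 with at least 5 day 7 reads 3 were lower and 2 higher. In bulk tissue, more cells of a type and more RNA per cell cannot be told apart. The share of each higher gene that came from such cells was not tested.

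**Figure D2:**
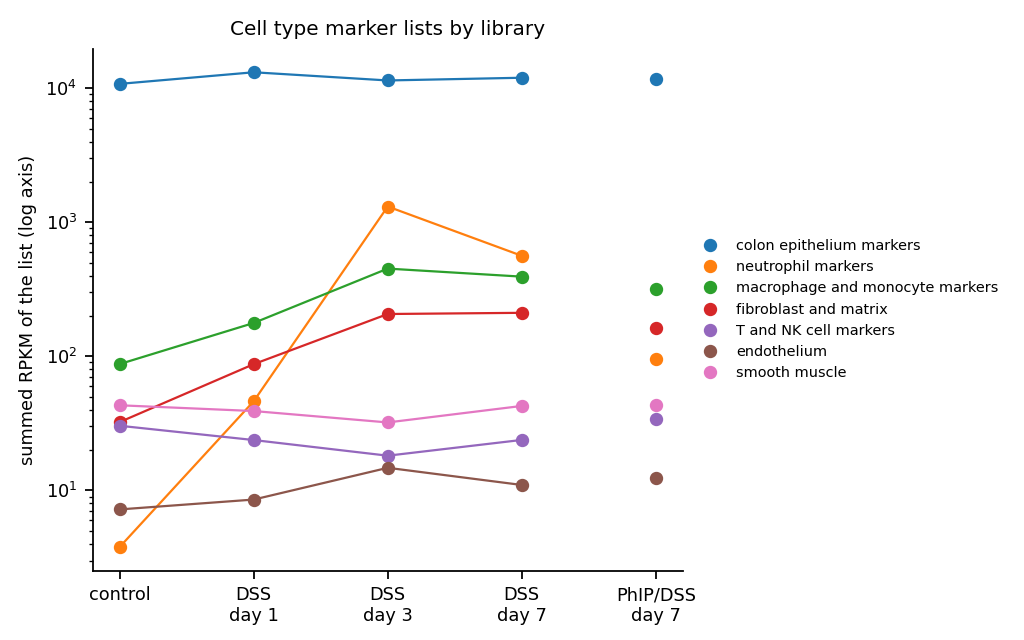
Summed RPKM (log axis) of 7 cell type marker lists in the control, DSS days 1, 3 and 7 and PhIP/DSS day 7; each point is 1 pooled library, and lines join the DSS libraries to the control. The epithelial sum lies between 10779.6 RPKM (control) and 13158 RPKM (DSS day 1), while the neutrophil sum in DSS day 7 lies between those of the control and DSS day 3.

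Several of the 15 genes highest in DSS day 7 relative to the control are on the neutrophil list. S100a8 and S100a9, which together form calprotectin, the calcium-binding protein of neutrophils, had 1 and 3 reads in the control and 500 and 950 in DSS day 7. Their levels at day 7 were 154 and 236 RPKM, under the day 3 levels of 416 and 583 RPKM. Clec4e, a C-type lectin receptor of myeloid cells, had no control read and 331 reads at day 7, at least 82.8-fold higher by the counting interval. Hdc, the enzyme that makes histamine, and Retnlg, a resistin-like neutrophil product, also had no control read and reached 11.7 and 27.8 RPKM. Lrg1, a secreted glycoprotein of the acute phase, had 2 and 368 reads. All of the 3 neutrophil markers with at least 5 control reads were at least 2-fold higher, where 9.09% of all genes were. Csf3r, the receptor for G-CSF, was 49.5-fold higher (23.8 to 124) and Acod1, which makes itaconate, 72.9-fold (36.8 to 169.5). Cxcr2, the receptor for neutrophil-attracting chemokines, was 4.42-fold higher (3.04 to 6.6).

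Inflammatory mediators made by many cell types were high in the same library. Of 27 on the list, 19 had at least 10 reads over the pair, and of the 12 with at least 5 control reads 11 were at least 2-fold higher, where 9.09% of all genes were. The exception was Il18, at 79.2 and 139 RPKM. Il1b, the cytokine interleukin-1 beta, went from 1.28 RPKM in the control to 101 RPKM, 79.3-fold higher (46.2 to 149). An annotated antisense gene, Il1bos, overlaps it. Nos2, the inducible nitric oxide synthase of macrophages and epithelium, stood at 1.41 and 65.5 RPKM (46.6-fold, 34.5 to 64.6), and Ptgs2, which encodes the prostaglandin-making enzyme COX-2, at 0.189 and 13.4 RPKM (71-fold, 32.4 to 195).

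Tnf, an upstream cytokine of the response, was among the mediators at least 2-fold higher, at 0.403 RPKM in the control and 9.2 RPKM at day 7. The chemokines that draw neutrophils were led by Cxcl2, with 1 control read and 206 day 7 reads, a ratio of 191 with a counting interval from 33.9 to 7589. Cxcl5, which epithelial cells make, had enough control reads for a narrower estimate, 12-fold (6.5 to 24.5). The natural brake on interleukin-1, the receptor antagonist Il1rn, was already 55.1 RPKM in the control and was 155 RPKM at day 7. Its ratio of 2.82 (2.63 to 3.02) was small beside that of Il1b, but its level at day 7 was above that of Il1b.

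The macrophage markers show different sizes of difference. Lyz2, the lysozyme of macrophages and neutrophils, was 13.7 RPKM in the control and 77.1 RPKM in DSS day 7 (5.63-fold, 4.6 to 6.94), and Cd14, a co-receptor for bacterial lipopolysaccharide, was 23.6 and 101 RPKM (4.26-fold, 3.73 to 4.88). C1qa, C1qb and C1qc, the complement subunits that resident macrophages make, were 2.49, 4.29 and 3.71-fold higher. Cx3cr1, the fractalkine receptor of resident macrophages, was within 2-fold at 0.730 and 0.871 RPKM. Arg1, the arginase of wound macrophages, had 4 control reads and 468 day 7 reads, 109-fold higher (42.1 to 400.3), and its 38.1 RPKM at day 7 was above the 27.5 RPKM of day 3. Spp1, which encodes the secreted matrix protein osteopontin, had 3 and 409 reads. F13a1, the catalytic subunit of the clot-stabilising factor XIII, had no control read and 9.65 RPKM at day 7, against 0.561 and 4.9 RPKM on days 1 and 3.

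Most of the fibroblast and matrix list was higher. Col1a1 and Col3a1, the fibrillar collagens of scar and stroma, were 1.16 and 2.09 RPKM in the control and 18.6 and 24.8 RPKM at day 7. These are ratios of 16 (11.7 to 22.4) and 11.9 (9.57 to 14.9). Fn1, which encodes fibronectin, differed most clearly on the list, 25.7-fold (17.4 to 39.7). Its values of 1.26, 6.85 and 10.4 RPKM on days 1, 3 and 7 put day 7 highest. Fap, a serine protease of activated fibroblasts, was the list's 1 lower gene, with 23 and 9 reads, and Thy1, a surface marker of fibroblasts and T cells, was level at 2.83 and 2.56 RPKM. Of 11 smooth muscle genes 2 were higher and 1 lower, and of 11 endothelial genes 4 were higher and 1 lower, where 9.09% and 7.65% of all genes were. With at least 5 control reads, 1 of 9 smooth muscle genes was higher and 1 lower. Of 10 such endothelial genes 3 were higher and 1 lower.

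Most matrix metalloproteinases were nearly unread in the control, 10 of the 16 with enough reads having fewer than 5 there. Mmp7, matrilysin, an epithelial protease, had 2 control reads and stood at 36.3 RPKM at day 7, the ratio being 122 (33.5 to 1013). Mmp10, stromelysin-2, made by wound-edge epithelium, had 1 control read and 13.1 RPKM at day 7. Mmp9, the gelatinase of neutrophil granules, had 3 and 369 reads. Among the 6 with at least 5 control reads, Mmp2 (11.6-fold, 6.26 to 23.7) and Adam8 (41-fold, 17.3 to 128) were higher, where 9.09% of all genes were. The abundant Mmp14, Mmp15, Timp2 and Timp3 were within 2-fold. Timp3, an inhibitor of these proteases, was 21.6 RPKM in the control, 3.47 and 5.5 RPKM on DSS days 1 and 3, and 24.3 RPKM on day 7. The gene overlaps Syn3 in the annotation.

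Epithelial defence genes were mixed. Of 24 antimicrobial genes with enough reads, 14 were higher and 2 lower, and of the 19 with at least 5 control reads 9 were higher and 2 lower, beside 9.09% and 7.65% of all genes. Their most abundant members stayed within 2-fold: Lypd8, which keeps flagellated bacteria from the surface, was 9779.5 and 17798 RPKM, and Dmbt1, a secreted scavenger receptor, 1238 and 2042 RPKM. The oxidase pair was higher. Duox2, an oxidase that releases hydrogen peroxide at the epithelial surface, and Duoxa2, its maturation factor, went from 25.2 and 12 RPKM to 104 and 114 RPKM. Duox2 was thus 4.15-fold higher (3.85 to 4.47) and Duoxa2 9.43-fold (7.95 to 11.2). Both had their highest value of the DSS libraries at day 7.

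Slpi, an inhibitor of neutrophil elastase, was 3.5 RPKM in the control and 75.6 RPKM at day 7 (21.6-fold, 14.4 to 34). Lcn2, which withholds iron from bacteria, and Saa3, an acute-phase protein, remained well above the control's 0.765 and 1.72 RPKM, at 46.9 and 122 RPKM, but under their day 3 values of 253 and 442 RPKM. Reg3b, a bactericidal lectin, stood at 1.72, 40.0, 166 and 4.15 RPKM in the control and on days 1, 3 and 7, 2.41-fold higher at day 7 (1.13 to 5.61) from 10 and 26 reads. The 2 lower genes were Ang4, an antimicrobial ribonuclease of goblet and Paneth cells, at 178 and 34.7 RPKM (5.14-fold lower, 4.41 to 6.02), and Wfdc2, a secreted protease inhibitor, at 334 and 95.3 RPKM (3.5-fold lower, 3.18 to 3.86).

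Most repair-associated epithelial genes were higher. Of 30 with enough reads 24 were at least 2-fold higher and none lower, and of the 27 with at least 5 control reads 21 were higher, beside 9.09% of all genes. The list's median log2 ratio was 1.66 against -0.07 over all genes. Clca4b, a member of the calcium-activated chloride channel regulator family, led the whole comparison by conservative fold, the end of the counting interval nearest to 1: 3.13 RPKM in the control, 288, 643 and 509 RPKM on days 1, 3 and 7, 162-fold higher at day 7 (129 to 207). It has near-identical neighbours, which unique reads may not separate fully. Ly6d and Ly6a (Sca-1), GPI-anchored surface proteins of the wound-associated state, were 4.32 and 196 RPKM in the control and 138 and 692 RPKM at day 7, with Ly6d at 32-fold (21.1 to 50.7).

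Clu set day 7 apart from the earlier days. It encodes clusterin, a secreted chaperone that marks injury-induced stem cells of the intestine. The levels were 28.6 RPKM in the control, 22.3 and 41.4 RPKM on DSS days 1 and 3 and 460.1 RPKM on day 7, 16.1-fold above the control (14.5 to 17.8). The separate PhIP/DSS day 7 library stood at 395 RPKM. A search for such genes (at least 4-fold from the control at day 7, within 2-fold on days 1 and 3, at least 50 reads) found 5 higher, Clu, Ppbp, Alox12, Map6 and Lgals2, and none lower. Of these, Clu had by far the most reads. Lgals2 was above the control earlier too, at 7.74, 13.8, 15.2 and 34.5 RPKM in the control and on days 1, 3 and 7. Ppbp had 0 control reads, so its place within 2-fold on days 1 and 3 rests on the floor of 3 reads. Aldh1a3, which makes retinoic acid, was also highest at day 7 but differed earlier too, with 1.07, 20.0, 29.2 and 63.3 RPKM.

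Of 13 EGF receptor ligands and receptors 4 were higher and none lower, and of the 12 with at least 5 control reads 3 were higher (9.09% of all genes were). Areg and Ereg, ligands of the EGF receptor, were 15.6 and 0.315 RPKM in the control and 44.3 and 3.22 RPKM at day 7, ratios of 2.85 (2.35 to 3.47) for Areg and 10.2 (5.35 to 21.9) for Ereg. Hbegf, another ligand, was level at 11.9 and 12.8 RPKM, and the receptor Egfr was 10.9 and 17.6 RPKM. Plaur, the urokinase receptor, stood at 6.82 and 37.5 RPKM (5.49-fold, 4.28 to 7.14). Among junction genes 2 of 25 were higher, a share near the 9.09% of all genes, and none lower. Cldn4, a sealing claudin, was one of them at 2.63-fold (2.42 to 2.85), while Cldn2, which forms a cation pore, was 74.5 and 44.5 RPKM.

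Keratins of stratified epithelium were present at low levels. Krt14, a basal-layer keratin, was 0.854 RPKM in the control and 10.3 RPKM at day 7 (12.1-fold, 6.55 to 24.7). Krt13 had no control read and 40 at day 7. Lor, which encodes loricrin of the cornified layer, was lower, with 29 and 4 reads. Of the 21 squamous genes 8 had enough reads, 4 higher and 1 lower, beside 9.09% and 7.65% of all genes. Of the 5 with at least 5 control reads 1 was higher and 1 lower.

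Interferon-inducible genes were higher in part. Interferon gamma comes mainly from T and NK cells, and its signal acts on genes through a sequence called the gamma-activated site (GAS). Type I and III interferons, made by many cells, act through the interferon-stimulated response element (ISRE). The lists of their targets held different shares of higher genes: 12 of 17 inducible GTPases were at least 2-fold higher, 8 of 21 interferon gamma targets and 5 of 28 antiviral genes, with none lower in any of them, where 9.09% of all genes were higher. Of the 20 interferon gamma targets with at least 5 control reads 7 were higher. The medians of the log2 ratio were 1.16, 0.78 and 0.54. These counts depend on the setting. From RPKM with 1 added, 5 of 17 GTPases, 6 of 21 interferon gamma targets and 3 of 28 antiviral genes were at least 2-fold higher. No test compares the lists with each other.

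The GTPases attack the vacuoles of intracellular microbes. Their promoters are shown because the genes were higher together and the sequence that interferon signals act through can be read in them. These are the 250 bases before the RefSeq start of 3 members, from GRCm38.p6, 5′ to 3′ on the plus strand, which is the gene's strand for each. Capitals mark matches to the ISRE letters (TTTC, any 2 bases, TTTC) or the GAS letters (TTCNNNGAA), on either strand.
Gbp5, chr3:142496684-142496933: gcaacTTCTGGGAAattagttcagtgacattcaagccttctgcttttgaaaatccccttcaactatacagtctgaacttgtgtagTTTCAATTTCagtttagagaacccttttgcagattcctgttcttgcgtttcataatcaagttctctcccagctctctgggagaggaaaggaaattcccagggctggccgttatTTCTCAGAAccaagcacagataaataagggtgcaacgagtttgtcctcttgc
Gbp2, chr3:142620413-142620662: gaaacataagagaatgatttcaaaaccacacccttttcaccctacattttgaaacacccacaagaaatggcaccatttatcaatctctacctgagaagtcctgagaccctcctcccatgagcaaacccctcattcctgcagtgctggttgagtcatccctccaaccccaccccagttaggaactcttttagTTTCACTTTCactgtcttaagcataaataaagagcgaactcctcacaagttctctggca
Igtp, chr11:58199306-58199555: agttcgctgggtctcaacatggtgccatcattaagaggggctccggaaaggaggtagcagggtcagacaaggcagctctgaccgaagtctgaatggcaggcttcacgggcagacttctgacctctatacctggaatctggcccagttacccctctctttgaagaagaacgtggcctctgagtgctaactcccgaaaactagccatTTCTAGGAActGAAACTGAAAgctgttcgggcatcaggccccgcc
Counting from the last base before the start as -1, the ISRE match began at -165 in Gbp5, -59 in Gbp2 and -34 in Igtp, and Igtp had a GAS match just before it at -45. Gbp5 had GAS matches at -245 and -52, and Gbp2 none. Of the 17 GTPase genes, 9 matched a promoter of the table, with 10 promoters between them. An ISRE was present in 9 of these 10 (90%) and a GAS in 6 (60%), where 3.443% and 8.298% of all 32851 promoters, each 250 bases before to 50 after the start, held them. The letters of the motifs can overlap. Of the promoters of antiviral genes 53.85% held an ISRE and 19.23% a GAS. Of those of interferon gamma targets 22.22% held an ISRE and 16.67% a GAS. A match describes the sequence and is not a measured binding site.

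Beside these sequences stand the values. Gbp2 was 20.9 RPKM in the control, 24.3 and 40.2 RPKM on DSS days 1 and 3 and 80.3 RPKM on day 7, 3.84-fold above the control (3.44 to 4.3). Gbp5 had 14 control reads and was 10.6-fold higher (6.14 to 19.8), and Igtp stood at 9.23 and 24.2 RPKM (2.63-fold, 2.17 to 3.19). Irgm1 and Gbp7, within 2-fold at 1.59 and 1.55, also held an ISRE. Each GTPase gene that matched a promoter held one, so the presence of this motif could not separate the higher members from the rest. For Gbp2 and Igtp the DSS day 7 level lay under that of PhIP/DSS day 7, 150.1 and 40.9 RPKM. Genes of the Gbp and Tgtp clusters have close copies, so reads may not be fully separated between them.

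Among interferon gamma targets, Ido1, which degrades tryptophan, was 3.94, 10.3, 9.3 and 29.1 RPKM in the control and on DSS days 1, 3 and 7, 7.37-fold at day 7 (5.43 to 10.2). Ubd, a ubiquitin-like modifier, was 3.72, 8.47, 4.45 and 31.7 RPKM (8.53-fold, 5.72 to 13.2). For both, day 7 was the highest of the DSS libraries. The T cell chemokines Cxcl9 and Cxcl10 were 20.3-fold (10.1 to 47.8) and 5.7-fold (3.58 to 9.53) higher, with day 7 levels of 7.3 and 14 RPKM. The feedback inhibitor Socs1 and the checkpoint ligand Cd274 (PD-L1) were 3.75 and 2.8-fold higher. The transcription factor Irf1 was within 2-fold at 1.71 (1.6 to 1.84), as were the immunoproteasome subunits Psmb8 and Psmb9.

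MHC class II genes, which present antigen to CD4 T cells, lay at or just under 2-fold. H2-Ab1 and H2-Eb1 were 2.09 (1.84 to 2.38) and 2.02 (1.69 to 2.42), and H2-Aa and the invariant chain Cd74 were 1.97 (1.71 to 2.28) and 1.95 (1.82 to 2.09). The count of 3 higher of 11 (9.09% of all genes were) therefore depends on where the line is drawn, and H2-DMb2, the third of them, had only 4 and 9 reads. H2-Ab1 was 37.8, 59.2, 43 and 79.2 RPKM in the control and on DSS days 1, 3 and 7. In the antiviral list Zbp1, a sensor of unusual nucleic acids, was the clearest at 13.7 and 56.7 RPKM (4.15-fold, 3.57 to 4.85), and Isg15 and Oasl2 were within 2-fold.

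Lymphocyte transcripts were sparse and mixed beside these genes. Cd8a and Cd8b1, the co-receptor of cytotoxic T cells, had 18 and 17 control reads and 3 and 3 at day 7, and Cd3e of the T cell receptor complex had 33 and 11. Gzmb, the granule protease granzyme B, was one of the 2 higher T and NK genes, with 10 and 33 reads. Of 15 B and plasma cell markers 3 were higher and 5 lower, beside 9.09% and 7.65% of all genes. Jchain, the joining chain of secreted IgA, was 9.39 and 34.3 RPKM (3.65-fold, 3.05 to 4.39), while the B cell genes Ms4a1 (CD20) and Cd79a were 2.51-fold (1.24 to 5.43) and 2.24-fold (1.51 to 3.37) lower.

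**Figure D3:**
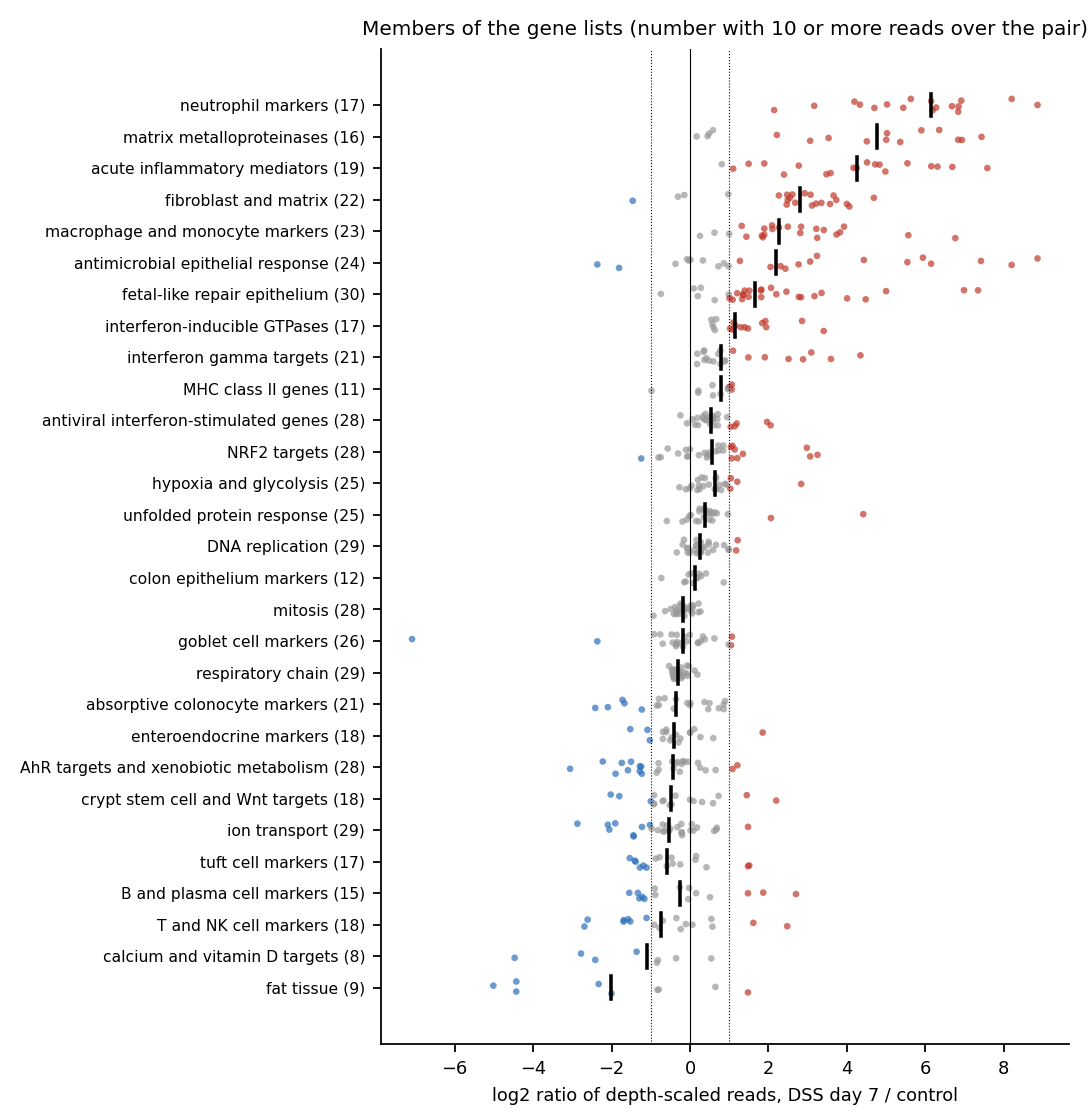
Log2 ratio of depth-scaled reads, DSS day 7 over control (horizontal), for the members of 29 gene lists (rows, with the number of members that had enough reads); each point is a gene, red at least 2-fold higher, blue at least 2-fold lower, and black bars are list medians. Ion transport, tuft cell and calcium lists have their medians left of 0, and repair, macrophage and fibroblast lists right of 0.

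The lowest gene by conservative fold was Mptx1. Mptx1, a mucosal pentraxin secreted by colon epithelium, was 1804 RPKM in the control and 13.3 RPKM at day 7, 136-fold lower (110.2 to 169.6). The levels on days 1 and 3 were 6.13 and 1.7 RPKM, and PhIP/DSS day 7 stood at 132 RPKM. Slc37a2, a sugar-phosphate exchanger, was 97.3 and 4.39 RPKM (22.2-fold lower, 18.9 to 26.1). The tubulin-binding genes Tppp3 and Tppp were 13.4-fold (10.1 to 18) and 10.3-fold (8.74 to 12.1) lower, from 84.1 and 40.2 RPKM. Others of the 15 lowest were Naaladl1, an intestinal peptidase, at 37.4 and 3.73 RPKM, Foxp2, a transcription factor, with 99 and 6 reads, and Neu3, a membrane sialidase, with 118 and 7.

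Car3 and Cfd, also among the 15, are genes of fat tissue. Car3, a carbonic anhydrase of fat and muscle, had 90 control reads and none at day 7, at least 25.7-fold lower by the counting interval. Cfd, adipsin, had 60 and none, at least 16.99-fold lower. Other fat markers lay the same way: Adipoq, adiponectin, had 14 control reads and 0 at day 7, and Fabp4, a fatty acid carrier of fat cells, 20 and 1. Of 9 fat genes with enough reads 5 were lower and 1 higher, but 4 of the lower ones met the read minimum through the control alone. Of the 5 fat genes with at least 5 day 7 reads 1 was lower and 1 higher, beside 7.65% and 9.09% of all genes. The list's sum was 130.0 RPKM in the control and 81.6 RPKM in DSS day 7, most of it from Pck1 (62.5 and 15.6 RPKM) and Pparg (37.3 and 58.4 RPKM), which colon epithelium also expresses. The part of fat tissue in these values was not tested.

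Some transport genes of the colonocyte were lower and others were level. Of 29 ion transport genes 8 were at least 2-fold lower and 1 higher, where 7.65% of all genes were lower, and the median log2 ratio was -0.54. The largest difference was in phosphate uptake: Slc20a1, a sodium-phosphate cotransporter, was 308 RPKM in the control and 42.1 RPKM at day 7 (7.32-fold lower, 6.88 to 7.79), and Slc34a2, another, was 46.3 and 12.4 RPKM (3.75-fold lower, 3.36 to 4.18). Slc26a3, the chloride-bicarbonate exchanger whose loss causes congenital chloride diarrhoea, was 469.8 and 110.0 RPKM (4.27-fold lower, 4.09 to 4.46), and Slc4a4, the basolateral sodium-bicarbonate cotransporter, was 26.8 and 6.45 RPKM (4.16-fold lower, 3.72 to 4.66).

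Slc26a3 was 175 and 161 RPKM on DSS days 1 and 3, so day 7 held the lowest of the DSS values. Slc5a8, a sodium-coupled carrier of butyrate, was 2.71-fold lower (2.55 to 2.88), and Kcne3 and Kcnq1, the 2 subunits of a basolateral potassium channel, were 2.72-fold (2.44 to 3.03) and 2.34-fold (2.08 to 2.63) lower. Cftr, the cAMP-regulated chloride channel, lay on the line at 2.03-fold lower (1.85 to 2.23). The sodium channel subunits differed from each other: Scnn1a was 126 and 79.9 RPKM, and Scnn1b was 14.5 and 23.1 RPKM. Best2, a bicarbonate channel of goblet cells, was near level at 47.1 and 41 RPKM. Slc26a6, the list's higher gene, had only 5 and 15 reads.

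**Figure D4:**
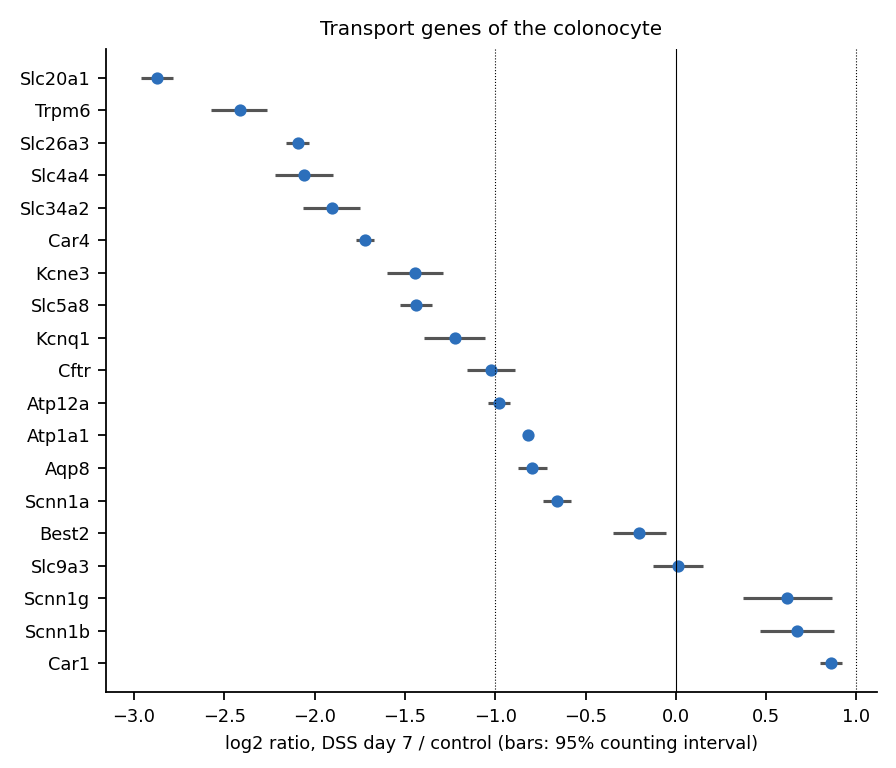
Log2 ratio, DSS day 7 over control, of 19 transport genes (points) with 95% counting intervals (bars; 1 library a side, so no replicate error); dotted lines mark 2-fold. Slc20a1 at the top is lowest, and Scnn1g, Scnn1b and Car1 at the bottom lie right of 0.

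Of 8 genes on the calcium and vitamin D list 4 were lower, where 7.65% of all genes were. They were Vdr, S100g, Trpm6 and the exchanger Slc37a2, already described. Vdr, the vitamin D receptor, was 199 RPKM in the control and 77.5 RPKM at day 7 (2.57-fold lower, 2.46 to 2.69). S100g, the calcium carrier calbindin-D9k, was 46.8 and 6.81 RPKM (6.86-fold lower, 4.56 to 10.7), and Trpm6, the magnesium channel, 40.4 and 7.58 RPKM (5.34-fold lower, 4.8 to 5.95). The calcium channel Trpv6 was different, with 3.28, 1.83, 0.309 and 4.77 RPKM in the control and on days 1, 3 and 7. Carbonic anhydrases split within the family: Car4, the surface enzyme, was 1326 and 402 RPKM (3.3-fold lower, 3.19 to 3.41), Car1 was 368 and 668 RPKM, and the tumour- and hypoxia-associated Car9 and Car12 were 2.06-fold (1.84 to 2.3) and 2.54-fold (2.16 to 3.0) higher. The water channel Aqp8 was 287 and 165 RPKM, within 2-fold.

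Absorptive cell markers were lower in part. Of 21 markers 5 were at least 2-fold lower (7.65% of all genes were) and none higher: Slc26a3, Car4 and Trpm6, already described, Slc26a2, a sulfate transporter, at 233 and 73.1 RPKM, and Cyp2c55, a cytochrome P450, at 132 and 56.1 RPKM. The surface peptide Guca2a, guanylin, was 1310.1 and 755 RPKM, within 2-fold.

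Of 28 xenobiotic metabolism genes 10 were lower and 2 higher, beside 7.65% and 9.09% of all genes, and of the 26 with at least 5 day 7 reads 8 were lower. Sult1a1, a phenol sulfotransferase, was 184 RPKM in the control and 22.1 RPKM at day 7 (8.33-fold lower, 7.32 to 9.5), after 66.6 and 39.1 RPKM on days 1 and 3. It overlaps Slx1b. Cyp2s1, a cytochrome P450 of epithelia, was 3.0-fold lower (2.78 to 3.23), and Abcb1a, the efflux pump P-glycoprotein, 2.43-fold (2.3 to 2.58). Targets of NRF2, the oxidative stress factor, were higher in 9 of 28 (9.09% of all genes were) and lower in 1. Slc7a11, the cystine importer, was 7.88-fold higher (5.42 to 11.8), Hmox1, heme oxygenase, 8.35-fold (5.31 to 13.8), and Gpx2, the glutathione peroxidase of gut epithelium, 193 and 491 RPKM (2.55-fold, 2.4 to 2.7). Hmox1 and Slc7a11 are also expressed by macrophages, whose markers were higher in the same library. The part of macrophages in these values was not tested.

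Energy genes differed little one by one. None of 29 respiratory chain genes passed 2-fold, yet 27 of them were below the control, with a median log2 ratio of -0.32 against -0.07 over all genes. Atp5b, the catalytic subunit of ATP synthase, was 1071 and 892 RPKM. Of 29 genes of butyrate use and fatty acid oxidation 4 were lower and 2 higher, beside 7.65% and 9.09% of all genes, Acsm3, a medium-chain acyl-CoA synthetase, being 89.3 and 26.7 RPKM (3.35-fold lower, 3.05 to 3.67). Of 25 hypoxia and glycolysis genes 4 were higher (9.09% of all genes were) and none lower. Pfkfb3, a regulator of glycolytic flux, stood out at 2.21 and 15.7 RPKM (7.13-fold, 5.7 to 9.01), while Ldha, lactate dehydrogenase, was 615 and 721 RPKM.

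Of 26 goblet cell markers 2 were higher and 2 lower, shares near the 9.09% and 7.65% of all genes. Muc2, the gel-forming mucin, was 1180.0 and 939 RPKM, Clca1, a mucus-processing protease, 2374 and 1853 RPKM, and Tff3, the trefoil peptide of mucosal repair, 1658 and 2551 RPKM. On day 1 Clca1 had been 765 RPKM. The glycosylation genes that build mucin sugars held 3 higher of 23 (9.09% of all genes were), led by St3gal4, a sialyltransferase, at 0.951, 66.6, 32.1 and 26 RPKM in the control and on days 1, 3 and 7 (27.4-fold at day 7, 16.4 to 49.3). An overlapping non-coding gene, 4930581F22Rik, also had reads. The membrane mucin Muc13 was 1295 and 1757 RPKM, and Muc1 2.11-fold higher (1.76 to 2.54).

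Of 17 tuft cell genes 6 were lower and 2 higher, beside 7.65% and 9.09% of all genes. With a minimum of 50 reads over the pair 9 remained, 2 lower and 2 higher. Trpm5, the cation channel of taste-like signalling, was 4.7 RPKM in the control and 1.77 RPKM at day 7 (2.66-fold lower, 1.98 to 3.61), and Dclk1, a kinase used to mark these cells, 2.85 and 1.56 RPKM. Alox5ap, one of the higher members, is also a myeloid gene. Of 18 enteroendocrine genes 3 were lower and 1 higher, beside the same shares: Chga, chromogranin A, was 2.12-fold lower (1.89 to 2.39) and Tph1, which makes serotonin, 2.04-fold (1.72 to 2.41), and the hormone genes Gcg and Pyy were within 2-fold.

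Stem cell and Wnt target genes had 3 of 18 lower and 2 higher, beside 7.65% and 9.09% of all genes, and 2 lower under TMM or DESeq2 scaling. Axin2, a Wnt feedback gene, was 19.9 RPKM in the control and 5.72 RPKM at day 7 (3.49-fold lower, 2.97 to 4.1), and Ascl2, the transcription factor of crypt stem cells, 7.93 and 1.95 RPKM (4.06-fold lower, 2.61 to 6.52). Lgr5, the stem cell receptor for R-spondins, lay just inside the line at 2.71 and 1.44 RPKM (1.89-fold lower, 1.34 to 2.67). Of the 2 higher genes, Prom1 was 45.2 RPKM in the control and 208 RPKM at day 7 (4.59-fold, 4.32 to 4.87). The other, Cd44, an adhesion receptor of crypt base cells and of leukocytes, was 2.73-fold higher (2.38 to 3.13). The list's summed level was 301 RPKM in the control and 420 RPKM at day 7, of which Prom1 made up 45.2 and 208 RPKM. Of the 18 genes 12 were below the control and 6 above, with a median log2 ratio of -0.50. The levels of the secreted niche protein Smoc2 were 7.97 and 7.95 RPKM.

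Cell cycle genes were close to the control. None of 28 mitosis genes passed 2-fold, and Mki67, the proliferation marker, was 36.8 and 26.2 RPKM. DNA replication genes had 2 of 29 higher (9.09% of all genes were) and none lower, and Mcm5 of the replicative helicase was 8.85, 22, 14.7 and 12.1 RPKM in the control and on days 1, 3 and 7. Of 25 unfolded protein response genes 2 were higher, and none of the 23 with at least 5 control reads, and of 18 heat shock genes 3 were higher, beside 9.09% of all genes. Hspa5 (BiP), the main chaperone of the endoplasmic reticulum, was 119, 278, 285 and 177 RPKM. Among 22 p53 targets 1 was higher and 2 lower, shares near or under those of all genes, and Cdkn1a (p21) was 252 and 284 RPKM.

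Of 10 proximal colon markers 5 were lower and none higher, and of 11 distal markers 3 were lower and none higher, where 7.65% of all genes were lower. Hoxb13, a distal transcription factor, was 320.3 and 159 RPKM, and the proximal enzyme Hao2 was 164 and 64.1 RPKM. Mptx1, Ang4 and Cyp2c55 are on the proximal list and Slc37a2 on the distal one. Their part in the lower genes was not tested.

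Across the DSS libraries the named genes followed several courses by day, each day being 1 pool. Neutrophil genes were highest on day 3 and lower on day 7: their summed level was 46.3, 1312 and 563 RPKM on days 1, 3 and 7, and 94.9 RPKM in PhIP/DSS day 7. Fibroblast and matrix genes were 87.5, 207 and 211 RPKM, day 7 being highest. Clu, Ido1 and Ubd were highest at day 7, Ly6d and Clca4b had been high since day 1, and Slc20a1 and Mptx1 were low on all 3 days. These comparisons share the 1 control library, whose chance deviations enter each of them.

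**Figure D5:**
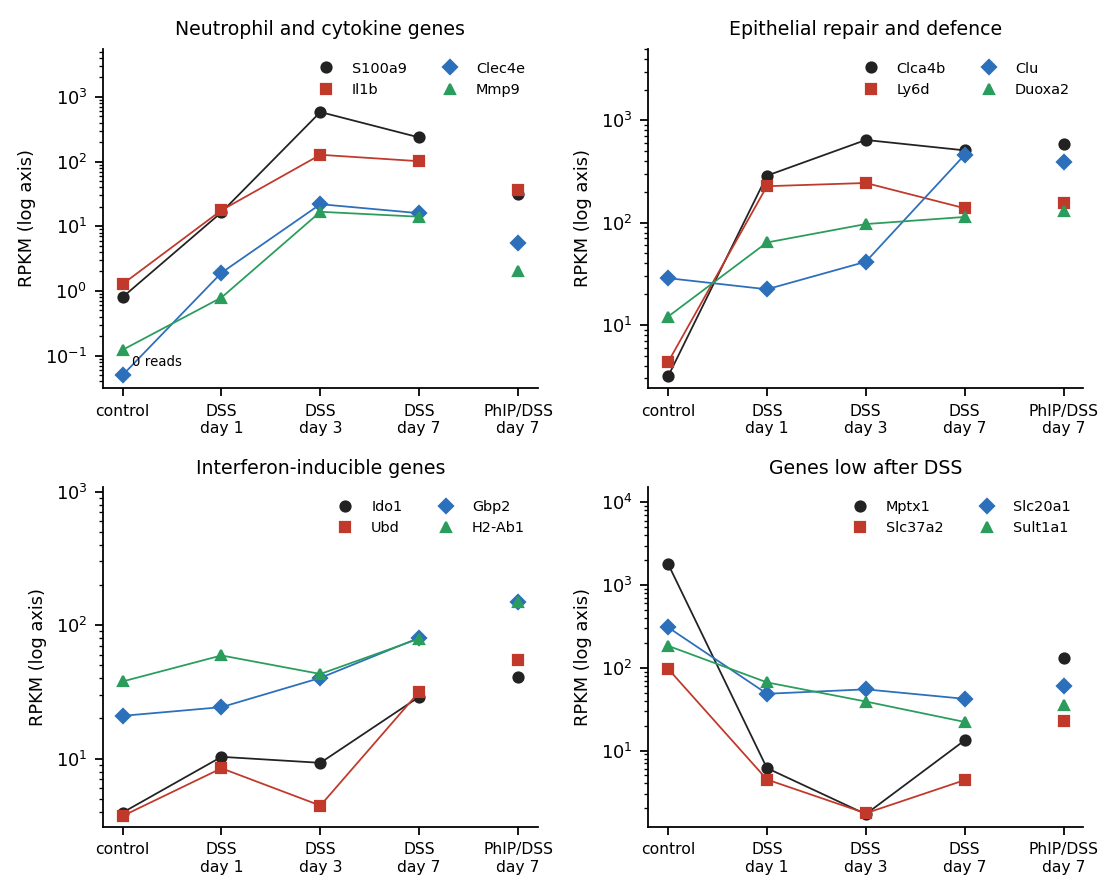
RPKM (log axis) of 16 genes in the control, DSS days 1, 3 and 7 and PhIP/DSS day 7; each point is 1 pooled library, lines join the DSS libraries to the control, and a library at 0 is drawn at the lower edge and marked as 0 reads. Clu is near the control until day 3 and 460.1 RPKM at day 7, and S100a9 is 583 RPKM at day 3 and 236 RPKM at day 7.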

How the data were processed

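Colon epithelial RNA was enriched for polyadenylated transcripts and sequenced on an Illumina instrument, per the labels' protocols. The deposited tables give, per the file headers, for each gene its length, a count of the reads that mapped uniquely, and an RPKM value. The submitters' processing notes name the mm10 build and FastQC. An aligner, counter, annotation or strand setting was not given in the sources used here, so reads of a gene and of one overlapping it cannot be told apart. Groups and days come from the sample labels; file names carry other day codes. The tables were joined on gene ID, a gene missing from a table being entered as 0 reads. Symbols, positions and promoters come from RefSeq (GRCm38.p6), and 27 of the 13603 genes had no symbol. For 12 genes the stated length differed within the pair.

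Ratios are of unique reads per library total, with exact 95% conditional binomial (Clopper-Pearson) intervals (scipy 1.17.1 in Python 3.11.15). A library at 0 reads was entered at a floor of 3 reads to form a ratio. A fold given as "at least" for such a gene is the end of the counting interval, from the real reads. Floors and intervals cover counting error only. A gene was counted as higher or lower at 2-fold or more with at least 10 reads over the pair. No test was run, because each side is 1 pool. Alternatives were TMM scaling (edgeR 4.0.16), DESeq2 1.42.0 size factors, other minimums of reads, 0.5 added reads, RPKM with 1 added, a 3-fold rule and the conservative end of the interval. The interval calculation was tested on simulated data.

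The comparison and the 46 gene lists were chosen with earlier results of these data known. Named genes were the 15 with the largest conservative fold in each direction, 2 members of each list by conservative fold and 2 by reads, and any member of the epithelial, interferon gamma and MHC class II lists. Other genes, among them Clu, Ly6d, Duox2, Slpi, Lcn2, Saa3, Reg3b, S100g, the collagens, the Wnt targets, the transporters beyond the rule and the clock genes, were chosen after their values were seen, as was the search for genes that differed at day 7 alone. Some genes of the lists are not reported here by name.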

Additional observations from a re-analysis of the deposited data

How the results depend on the processing

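The main counts were 1237 genes higher and 1040 lower. They were 698 and 530 with a minimum of 50 reads, 641 and 365 from RPKM with 1 added, 804 and 418 under a 3-fold rule, and 642 and 314 where the conservative end of the counting interval had to pass 2-fold. TMM scaling gave 1312 and 948, DESeq2 size factors 1293 and 971, a minimum of 1 read 1517 and 1521, and 0.5 added reads 1202 and 1020. The higher genes were 54.3% of all calls, and 58.1% with TMM scaling. Of the list medians (log2), that of the epithelial markers, 0.12, was 0.18 with TMM scaling and 0.17 with DESeq2 size factors. With RPKM plus 1 the medians were 2.61 for inflammatory mediators, 0.82 for squamous genes, 2.03 for metalloproteinases, 3.34 for neutrophil, 1.41 for macrophage, 1.75 for fibroblast and -1.31 for fat genes. With a minimum of 1 read they were 1.12 for squamous, -0.43 for water channel and carbonic anhydrase, -0.84 for calcium and -1.33 for fat genes. With a minimum of 50 reads they were -0.83 for fat and 1.75 for enteric neuron and glia genes. Adding 1 RPKM shrinks the ratios of genes at low levels. A minimum of 50 reads drops genes with few reads, and a minimum of 1 read adds such genes. The part of these steps in each median, and the cause under the scalings, was not tested. With a minimum of 50 reads the enteric neuron and glia median thus turned from -0.35 to positive, and that of mast cell and eosinophil genes from 0.01 to -0.72. Under both scalings Cdh1 and Cdhr5, both near a log2 ratio of 0, turned from slightly negative to slightly positive. No named gene at least 2-fold apart, and no other list median, changed sign under the settings run. No paired analysis was possible because each group has 1 library. With 1 pool a side, differences between mice are not measured, and below about 10 reads the interval spans several-fold.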

Other observations

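Core clock genes were not part of the lists above and were looked up after the data had been seen. Of 14 of them, 7 were at least 2-fold lower in DSS day 7 than in the control and 1 was higher, beside 7.65% and 9.09% of all genes. Dbp, an output transcription factor of the clock, stood at 15.8 RPKM in the control, 2.8 and 1.7 RPKM on DSS days 1 and 3 and 1.52 RPKM on day 7, 10.4-fold lower (6.63 to 17.2). Nr1d1, which encodes the repressor REV-ERB alpha, was 110.2, 25.5, 25.7 and 25.2 RPKM, 4.38-fold lower at day 7 (3.99 to 4.82). Nr1d2, Tef, Per3, Cry2 and Ciart were the other 5 lower genes. Nfil3, a repressor that works against Dbp, was the higher one at 3.25-fold (2.04 to 5.35), and the activator Arntl (BMAL1) was level at 20.4 and 23.1 RPKM. The hour of collection was not given in the sources used here, and its part in these values was not tested.

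Ppbp, a platelet chemokine gene, had no reads in the control, 2 and 6 on DSS days 1 and 3 and 62 on day 7, and 2 in PhIP/DSS day 7. Pf4, the neighbouring platelet chemokine gene, had 2 control reads and 7 at DSS day 7. The platelet integrin gene Itga2b had 14 and 9 reads.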
